A study of Mus musculus with 12 samples.

Results

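This report describes regulatory T cells (Tregs) that carried the insulin-specific T cell receptor (TCR) 4-8, comparing those isolated from the pancreatic islets with those isolated from the spleen. The comparison rests on 6 of the 12 RNA sequencing libraries of the series, 3 from islets and 3 from spleen, chosen by their titles. Of the 24417 genes listed for these libraries, 8981 were tested, namely those with a mean normalized count of at least 10 over the 6 libraries. All libraries came from NOD mice, a strain that develops autoimmune diabetes, aged 6.8 weeks. The mice were retrogenic, meaning that bone marrow carrying introduced receptor genes had rebuilt their blood cells. Per the design text they expressed both insulin-specific receptors of the study, 4-8 and 12-4.4m1, and Tregs of each receptor were taken from both organs. The order in which that text names high and low affinity makes 4-8 the high affinity receptor. By this description islet and spleen 4-8 Tregs shared strain, age and receptor, and differed in the organ of origin. Sex-linked transcripts were uneven among the libraries, as given below.

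Tregs are CD4 T cells that depend on the transcription factor Foxp3 and restrain other immune cells through inhibitory receptors such as Ctla4 and Lag3, through cytokines such as Il10, and by binding growth factors that other T cells need. In the spleen most Tregs circulate, carrying receptors that lead them into and out of lymphoid organs. In the islets of NOD mice, insulin is both the secreted product of the tissue and the antigen that a 4-8 Treg recognises, so the comparison sets Tregs at the site of their antigen against Tregs of the same receptor in a lymphoid organ.

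Levels are given as the authors' regularized log (rlog) values, normalized read counts on a log2 scale in which low counts are pulled towards the gene's mean. A difference is the islet mean less the spleen mean, in log2 units, with the standard error (SE) of a limma fit, and a gene is called higher or lower at a limma adjusted p of 0.05. Means are given with the SD over 3 libraries. The median SD of a tested gene was 0.231 in islets and 0.144 in spleen, and the median SE of a difference was 0.181. Nothing in the labels ties a library to a mouse, and the p-values therefore cover the spread among these libraries, which may be technical. They do not describe how cells were released from either organ, so location in the mouse and the isolation procedure cannot be told apart.

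The Treg label was checked against its defining genes. Foxp3 was 9.61, 9.93 and 9.63 in islet libraries 1, 2 and 3, and 9.81, 9.77 and 9.76 in spleen libraries 1, 2 and 3. The groups overlapped, and the difference was -0.06 ± 0.14 SE (limma adjusted p = 0.854). Il2ra, the high affinity IL-2 receptor chain that Tregs display, was 9.12 ± 0.24 in islets and 8.97 ± 0.19 in spleen, and Ikzf2, the transcription factor Helios, was 10.74 ± 0.22 and 11.03 ± 0.10 (n = 3 each), with neither difference passing (limma adjusted p = 0.635 and 0.230). Markers of other cell types were then examined. None of 24 islet endocrine markers, 12 B cell markers and 10 erythroid markers reached the count minimum. Ins1 and Ins2, the insulin genes, had mean normalized counts of 0.769 and 0.711, and Pdx1, Krt19, Cdh5 and Hbb-bs are listed at 0. The ribosomal protein gene Rpl26 and the respiratory chain gene Ndufs5, which all cells use, are also listed at 0, so a 0 in this table can mean that a gene was not counted. Of 22 myeloid and dendritic markers, 2 were tested and neither passed. Of the ductal and endothelial lists, Spp1 was higher, and Epcam and Pecam1 were lower. Of 13 markers of CD8 T and NK cells, 5 were tested, and Xcl1 and Klrd1 were higher in islets. Their summed level was 144, 211 and 150 in islet libraries 1, 2 and 3 and 151 to 168 in spleen, and Cd8a had a mean normalized count of 0.281 and Ncr1 of 0.073.

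Of the marker lists of other cell types, that of pancreatic acinar cells had the most members higher in islets. Acinar transcripts encode digestive enzymes of the exocrine pancreas that surrounds the islets. Of 31 acinar markers in the table, 26 had reads, 11 were tested, 9 were higher in islets and 0 lower, or 4 higher after quantile normalization. The count minimum is a mean over all 6 libraries. Markers with reads mainly in islets could therefore reach it through the islet libraries, which favours calls of higher. Without that minimum, 10 of the 26 were higher and 0 lower. The summed level of the 26 markers, as the sum of linear rlog values, was 258, 160 and 270 in islet libraries 1, 2 and 3 against 123, 114 and 115 in the spleen libraries. Ctrb1, a chymotrypsinogen, was 5.92, 4.46 and 5.84 in islets and 3.49, 3.13 and 3.11 in spleen, so islet library 2 held the least of the islet libraries and the groups did not overlap (difference 2.17 ± 0.29 SE, limma adjusted p = 9.69e-05). The rlog scale understates such differences at low counts. The authors' deposited FPKM of Ctrb1 was 99.0 in islets and 0.136 in spleen, with a Cuffdiff q = 0.223. The part of acinar RNA in the differences described here was not tested. The summed mean normalized count over all 6 libraries was 245 for the acinar markers and 1284347 for all genes, and 5 of the 31 markers, Prss1 and Amy2a5 among them, are listed at 0.

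Islet library 2 also stood apart in other ways. A principal component analysis of the tested genes put 50.4% of the variance on a first component that separated the organs and 22.5% on the second, on which islet library 2 scored 0.829 and the other islet libraries -0.05 and -0.53. Its title has another style than those of the other 5 libraries. Xist, the RNA that coats the inactive X chromosome, was 10.76 there, against 7.0 and 7.91 in islet libraries 1 and 3 and 6.99, 8.13 and 9.14 in spleen, while the Y-linked gene Ddx3y was lowest there at 5.83, against 7.15 to 7.75 in the other 5 libraries. The Y-linked genes Eif2s3y and Uty were also lowest in islet library 2 (5.81 and 5.09). Kdm5d, also Y-linked, was lowest in spleen library 3 (5.0, against 5.17 in islet library 2). Xist and Ddx3y were thus both measured in every library, in unequal proportions. Spleen library 2 carries a description that lists a table of the other receptor, and its column was used by its title.

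Islet 4-8 Tregs differed from spleen 4-8 Tregs mainly by higher transcript levels. In islets 462 genes were higher (5.14% of those tested) and 255 were lower (2.84%), which makes 717 in either direction (7.98%). The counts of every gene list below are to be read beside these shares. The largest rises were those of Fos, a subunit of the transcription factor AP-1, of the heat shock genes Hspa1a and Hspa1b, and of Rgs16, which shortens signals of G protein-coupled receptors. The largest fall was that of Klf3, a transcriptional repressor, and it was followed by Dtx1, an E3 ligase of the Notch pathway. Differences of at least 1 log2 unit were seen in 149 of the higher and 21 of the lower genes, and of at least 2 in 27 of the higher genes and in Klf3 alone of the lower ones. The median difference was 0.80 over the higher genes, -0.71 over the lower and -0.01 over all tested genes. In these bulk samples a change in the share of cells that express a gene cannot be told apart from a change in its amount per cell.

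**Figure D1:**
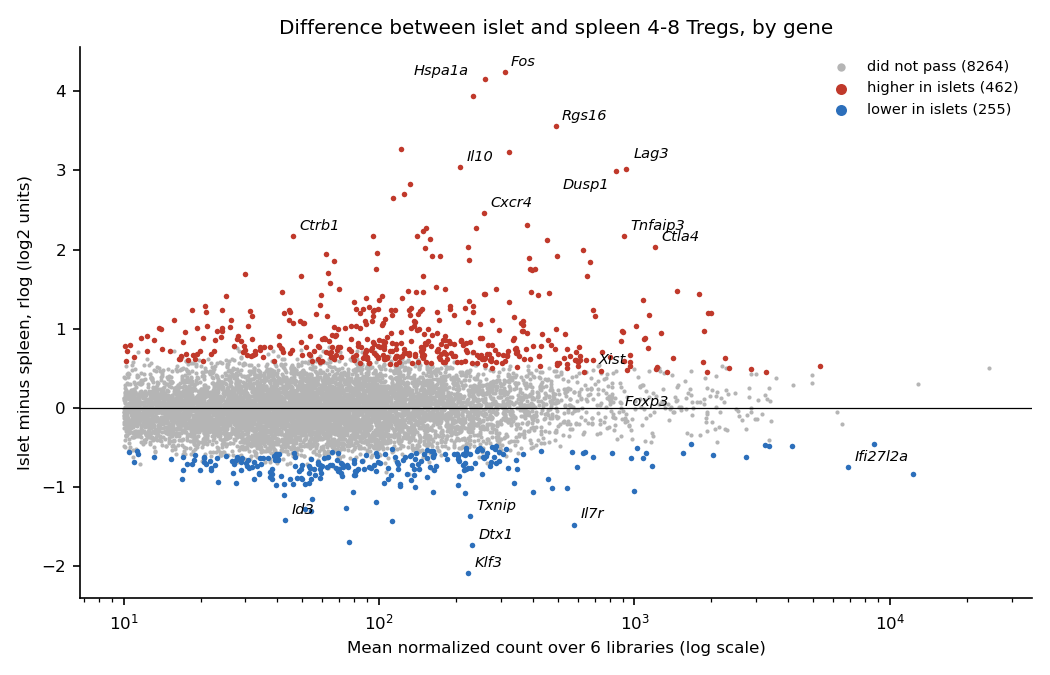
Difference between islet and spleen 4-8 Tregs (vertical axis, rlog, log2 units) against the mean normalized count over the 6 libraries (horizontal axis, log scale) for the 8981 tested genes, with the 462 higher genes in red, the 255 lower in blue and the others in grey. The higher genes reach 4.24 (Fos), while the lower genes reach -2.09 (Klf3), and Foxp3 and Xist lie among the genes that did not pass.

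The islet and spleen libraries did not overlap in 707 of the 717 called genes, against 27.4% of all tested genes. Lack of overlap is thus near certain for a called gene and adds no support where it is described below. An unadjusted p under 0.05 was reached by 1998 genes. The authors' deposited DESeq2 table called 607 of the tested genes, 424 higher and 183 lower, with 572 among the 717, and gave the same sign to all 717. The number of calls moved with single libraries. Without islet library 2 there were 694 higher and 517 lower genes, while without spleen library 1, 2 or 3 there were 245, 268 and 247 higher and 61, 102 and 79 lower.

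AP-1 is a pair of Fos and Jun family proteins made within minutes of receptor signals, and 6 of the 12 tested members of the AP-1 and related bZIP list were higher in islets (Fos, Fosb, Jun, Fosl2, Junb and Jund), with 0 lower. Fos was 8.62, 8.64 and 8.43 in the islet libraries and 4.58, 4.36 and 4.01 in the spleen libraries. Every islet library was far above every spleen library, and the difference of 4.24 ± 0.18 SE (limma adjusted p = 1.19e-10) is an 18.9-fold difference of rlog values. The rlog scale understates such changes: the authors' deposited table gives an FPKM of 230 in islets and 1.59 in spleen. Fosb rose by 3.27 ± 0.19 SE, from 3.88 ± 0.29 to 7.15 ± 0.16 (limma adjusted p = 5.14e-09), although the authors' deposited Cuffdiff table gives it q = 0.076. Jun was 7.31, 7.22 and 7.27 in islets and 4.62, 4.97 and 4.09 in spleen (2.71 ± 0.21 SE, adjusted p = 1.52e-07), and Fosl2 was 2.66 ± 0.22 SE higher (adjusted p = 4.10e-07). Junb and Jund, which spleen Tregs already expressed at 8.00 ± 0.12 and 7.56 ± 0.07, were 1.84 and 1.46 higher in islets. Batf, a bZIP partner that effector Tregs rely on, was 8.44 ± 0.51 in islets and 8.41 ± 0.10 in spleen (adjusted p = 0.960). The median over the 12 tested members was 1.0.

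Of 30 early genes that TCR signals induce, 18 were higher and 0 lower, with a median of 0.86. The nuclear receptors Nr4a1, Nr4a2 and Nr4a3, whose transcripts follow antigen stimulation of T cells, formed the top of the list. Nr4a1 was 8.08, 8.61 and 8.20 in islets and 5.82, 6.0 and 6.27 in spleen (2.27 ± 0.18 SE, limma adjusted p = 2.21e-07). Nr4a2 was 2.83 ± 0.22 SE and Nr4a3 2.23 ± 0.17 SE higher, and no spleen library reached the lowest islet library in any of the 3. Egr1 and Egr2, zinc finger factors of the same response, were 1.17 and 1.09 higher (adjusted p = 0.000757 and 0.00157). Crem, a factor that binds cyclic AMP response elements, rose by 1.92, Odc1, the enzyme that opens polyamine synthesis, by 1.76, and Gadd45b, a stress signalling protein, by 1.45. Cd69, a membrane protein that holds lymphocytes in tissue, was 7.50, 7.59 and 7.50 in islets against 6.07, 6.40 and 6.45 in spleen (1.23 ± 0.16 SE, adjusted p = 9.54e-05). The rises of Klf6 (1.23), Csrnp1 (1.39), Irf4 (1.25), Tnfrsf9 (0.95), Tagap (0.99), Spry1 (1.03), Plk3 (0.71), Irf8 (0.76) and Klf10 (0.74) complete the 18.

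**Figure D2:**
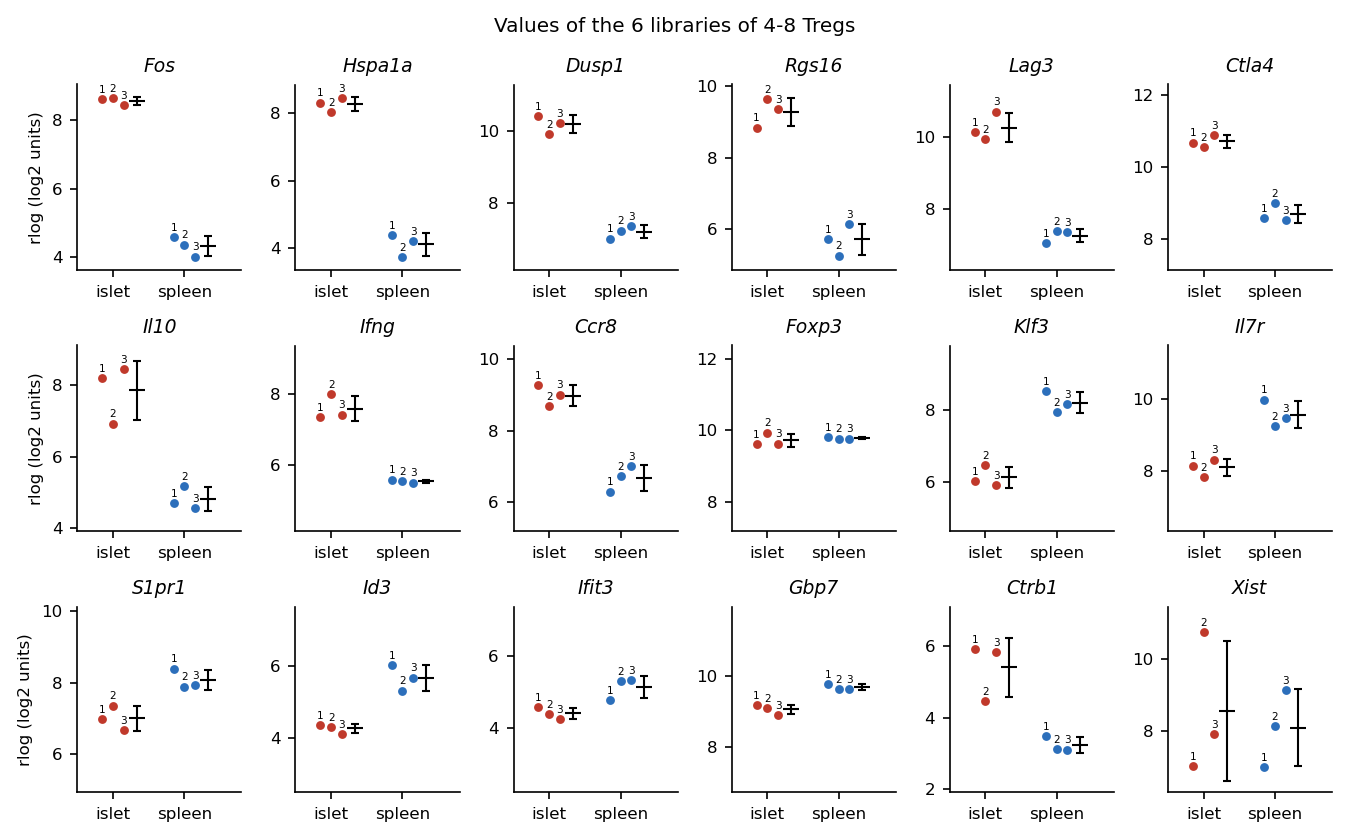
The rlog values (log2 units) of 18 genes in the 3 islet libraries (red) and the 3 spleen libraries (blue) of 4-8 Tregs, numbered by replicate, with the mean and SD of each group as a black mark, and with a separate axis range in each panel. Fos in islets lies between 8.43 and 8.64 and in spleen between 4.01 and 4.58, while Foxp3 and Xist overlap between the organs.

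Heat shock chaperones refold damaged proteins and are switched on by the factor Hsf1. Of 23 tested, 12 were higher and 0 lower, with a median of 0.60, and in the fits that left out 1 library the count stayed between 11 and 12. Hspa1a, an inducible member of the Hsp70 family, was 8.32, 8.04 and 8.46 in islets and 4.40, 3.75 and 4.22 in spleen. All islet libraries lay above all spleen libraries, by a mean of 4.15 ± 0.20 SE (limma adjusted p = 2.87e-10). The authors' deposited tables give Hspa1a an FPKM of 128 in islets and 0.656 in spleen, with a Cuffdiff q = 0.061 and a DESeq2 log2 fold change of 3.33. Hspa1b was 3.94 ± 0.17 SE higher (adjusted p = 1.19e-10). Hspa1a and Hspa1b are near-identical copies, so how the authors' counting divided reads between them is uncertain. Dnajb1 and Dnaja1, co-chaperones of Hsp70, rose by 1.89 and 1.11, and Hsph1, a nucleotide exchange factor of Hsp70, by 2.03. The Hsp90 genes Hsp90aa1 and Hsp90ab1 rose by 1.48 and 0.97, and the constitutive Hsp70 gene Hspa8 by 1.03. The mitochondrial chaperonins Hspd1 and Hspe1 were 0.91 and 0.82 higher, Stip1 0.82 and Dnajb4 0.60. Hsf1 itself was 5.97 ± 0.17 in islets and 5.89 ± 0.09 in spleen (adjusted p = 0.840). Of 20 genes of the unfolded protein response, 3 were higher, namely Ppp1r15a (2.17, adjusted p = 3.39e-07), which reverses the stress-induced block of translation, Pdia6 (0.88) and Edem1 (0.51). The libraries overlapped for Pdia6, and the count of 3 was 6 without islet library 2 and 1 without islet library 1, spleen library 1 or spleen library 2.

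The promoter of Hspa1a is shown because its family carried 2 of the 3 largest rises. It lies next to the gene, which is on the minus strand of chromosome 17 at 34969190 to 34972156 (GRCm38, GENCODE vM21, protein-coding). The 250 bases before the start, chr17:34972157-34972406 on the minus strand of GRCm38.p6 in RefSeq, are printed 5′ to 3′, with capitals for the match to the heat shock motif GAANNTTC, searched on both strands.
Hspa1a: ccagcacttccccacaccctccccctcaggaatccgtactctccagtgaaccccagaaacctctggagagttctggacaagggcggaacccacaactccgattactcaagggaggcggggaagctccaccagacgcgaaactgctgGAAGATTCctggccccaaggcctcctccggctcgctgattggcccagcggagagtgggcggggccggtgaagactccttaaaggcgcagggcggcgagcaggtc
The match begins 104 bases before the start. The same 250 bases of Hspa1b differ from these at 3 bases. Of the 9 higher chaperones with a promoter window, which runs from 250 bases before to 50 after the start, 6 (66.7%) held this motif. So did 9 of the 18 tested chaperones with a window. The share was 6.86% of the 6951 tested genes with a window and 7.86% of all 32851 windows. A gene counts as holding a motif if any of its windows does. Among all higher genes with a window the share was 7.87%.

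Of 12 MAP kinase phosphatases tested, 4 were higher and 0 lower. Dusp1, which encodes a phosphatase that switches off MAP kinases, was 10.41, 9.91 and 10.23 in islets and 6.99, 7.21 and 7.35 in spleen, a difference of 3.0 ± 0.16 SE (limma adjusted p = 1.41e-09) with no overlap. The others were Dusp5 (2.0, adjusted p = 1.33e-07), Dusp14 (1.46) and Dusp4 (1.26). Dusp6, which acts on ERK, was 5.47 ± 0.20 in islets and 5.12 ± 0.25 in spleen (adjusted p = 0.294). The promoter of Dusp1 is shown because it holds a full cyclic AMP response element (CRE, TGACGTCA, a palindrome), the site to which Crem and related factors bind. The window is the 250 bases before the gene's start in RefSeq, chr17:26508473-26508722, minus strand, GRCm38.p6, with the element in capitals. GENCODE vM21 gives the gene a span of 26505590 to 26562128 on the minus strand, since its model includes a transcript that starts further upstream, so the window lies inside that span.
Dusp1: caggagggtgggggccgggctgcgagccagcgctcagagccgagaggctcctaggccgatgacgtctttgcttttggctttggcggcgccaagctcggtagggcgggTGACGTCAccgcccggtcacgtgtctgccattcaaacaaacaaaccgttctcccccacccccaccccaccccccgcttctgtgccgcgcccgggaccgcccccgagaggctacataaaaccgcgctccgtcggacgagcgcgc
The element begins 143 bases before the RefSeq start. It was found for 18 of 356 higher genes with a window (5.06%), 2 of 187 lower genes (1.07%) and 283 of 6951 tested genes (4.07%), and in 1.79% of all windows, so the higher genes lay near the share of all tested genes.

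Rgs proteins, which end G protein signals from chemokine receptors, were higher for 3 of 8 tested members, with 0 lower. Rgs16 was 8.85, 9.64 and 9.37 in islets and 5.74, 5.27 and 6.15 in spleen (3.56 ± 0.22 SE, limma adjusted p = 9.27e-09). Rgs2 was 8.87, 8.76 and 8.51 against 5.44, 5.41 and 5.59 (3.23 ± 0.16 SE, adjusted p = 5.30e-10). Rgs1 was 1.92 ± 0.17 SE higher. For all 3 the groups were apart by more than the spread within either.

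Of 23 NF-kB subunits and feedback genes, 6 were higher and 0 lower. Tnfaip3, the ubiquitin-editing enzyme A20 that stops NF-kB signalling, was 10.31, 10.39 and 10.27 in islets and 8.22, 8.13 and 8.10 in spleen (2.17 ± 0.13 SE, limma adjusted p = 8.38e-09), with no overlap. The nuclear IkB proteins Nfkbid, Nfkbiz and Bcl3 were 1.35, 1.0 and 0.67 higher, Nfkbib 0.87 and Tnip3, a partner of A20, 0.87. The subunit Nfkb1 was 8.15 ± 0.13 in islets and 7.95 ± 0.18 in spleen (adjusted p = 0.477).

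Regulators of mRNA decay and proliferation were higher for 9 of 16 tested members, with 0 lower and a median of 0.63. Zfp36l1, which binds AU-rich elements and marks transcripts for decay, was 10.64, 10.13 and 10.67 in islets and 9.26, 8.96 and 9.15 in spleen (1.36 ± 0.16 SE, limma adjusted p = 2.57e-05). Its relatives Zfp36l2 and Zfp36 rose by 0.95 and 0.75, and Zc3h12d by 0.99. The anti-proliferative genes Btg1, Btg2, Tob1 and Tob2 rose by 0.66 to 0.80, and Pan3, a subunit of a deadenylase, by 0.56. The count of 9 was 5 without spleen library 1 or spleen library 3.

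**Figure D3:**
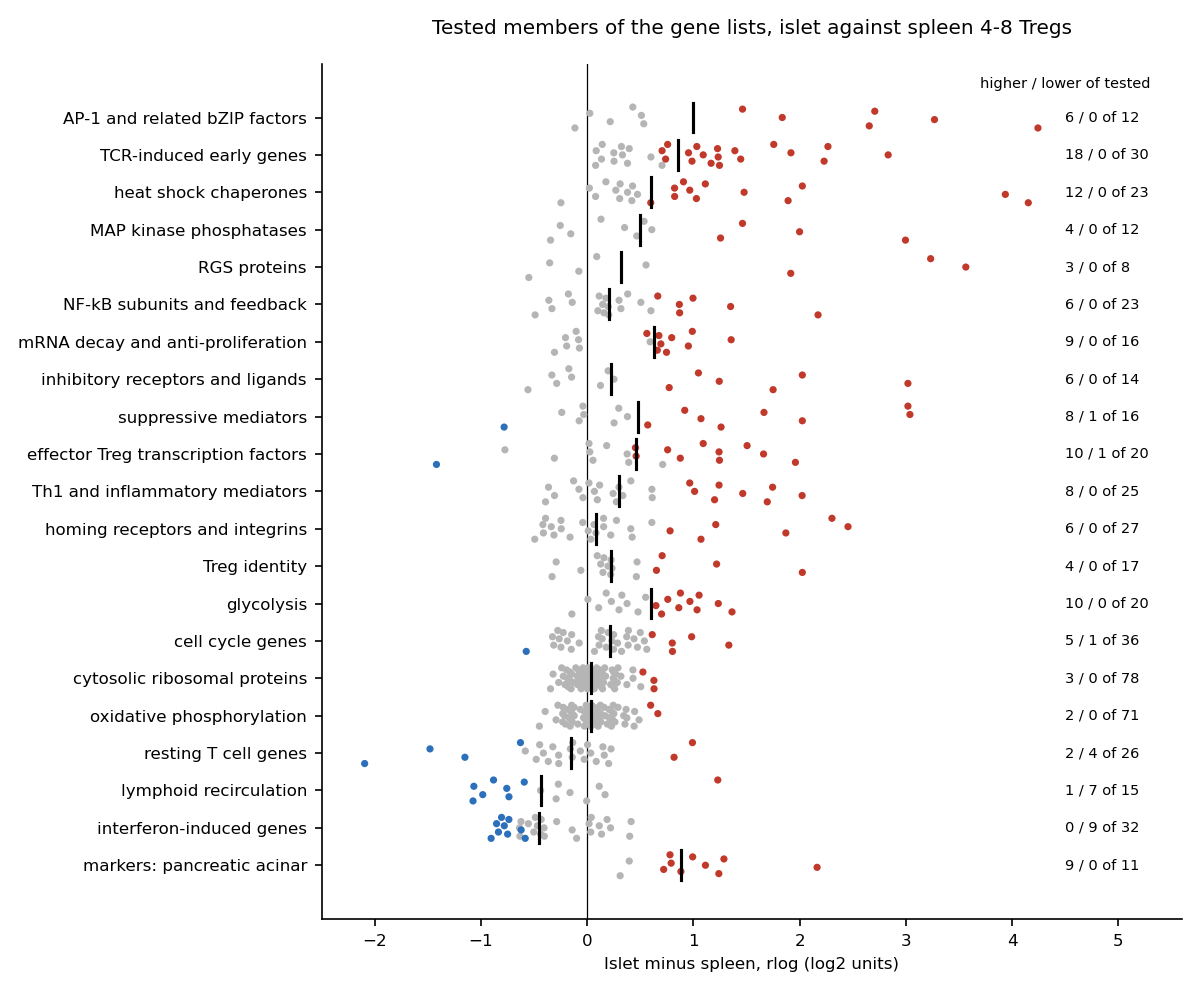
Difference between islet and spleen 4-8 Tregs (horizontal axis, rlog, log2 units) for the tested members of 21 gene lists, 1 point per gene, red if higher, blue if lower and grey if it did not pass, with the list's median as a black bar and the counts at the right. AP-1, early genes and chaperones extend far to the right, while lymphoid recirculation and interferon-induced genes lie mostly to the left.

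Inhibitory receptors damp T cell responses. Of 14 tested, 6 were higher and 0 lower, with a median of 0.23. Lag3, which binds MHC class II, was 10.14, 9.94 and 10.72 in islets and 7.03, 7.37 and 7.35 in spleen. All islet libraries exceeded all spleen libraries, by 3.02 ± 0.18 SE (limma adjusted p = 8.27e-09), and the authors' deposited FPKM was 674 and 36.7. Ctla4, which takes the ligands of Cd28 from antigen-presenting cells, was 10.68, 10.56 and 10.90 against 8.56, 8.98 and 8.52 (2.03 ± 0.15 SE). Tigit, a receptor for nectin-like ligands, was 1.75 ± 0.18 SE higher and Pdcd1, which encodes PD-1, 1.24 ± 0.16 SE. Cd200 and Havcr2, which encodes TIM-3, were 1.05 and 0.77 higher. On GRCm38, Lag3 is on chromosome 6 at 124904361 to 124911705, minus strand, and Ctla4 on chromosome 1 at 60887000 to 60915832, plus strand, both protein-coding.

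Of 18 costimulatory receptors tested, 4 were higher and 1 lower. Icos was 10.54 ± 0.09 in islets and 9.37 ± 0.12 in spleen (1.18 ± 0.13 SE, limma adjusted p = 1.65e-05), and Tnfrsf9 (4-1BB), Tnfrsf1b (TNF receptor 2) and Cd28 were 0.95, 0.95 and 0.60 higher. Without islet library 2 the count of 4 was 7. Tnfrsf25, the receptor for TL1A, was lower, with 5.54, 5.23 and 4.86 in islets against 6.96, 6.25 and 6.23 in spleen (-1.27 ± 0.22 SE, adjusted p = 0.00148). Of the core Treg identity list, 4 of 17 were higher and 0 lower, namely Ctla4, Lrrc32 (GARP, which displays latent TGF-beta, 1.22), Cd4 (0.71) and Capg (0.65).

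Of 16 suppressive mediators tested, 8 were higher and 1 lower, with a median of 0.48. Il10 was 8.20, 6.93 and 8.46 in islets and 4.72, 5.19 and 4.57 in spleen, so islet library 2 was the lowest islet library and still above spleen (3.04 ± 0.29 SE, limma adjusted p = 2.41e-06). Areg, the growth factor amphiregulin that Tregs release in tissue repair, followed the same order: 5.87, 5.05 and 6.22 in islets against 3.97, 4.22 and 3.95 in spleen (1.67 ± 0.24 SE, adjusted p = 0.000237). Il1r2, a decoy receptor for IL-1, was 1.26 ± 0.25 SE higher. Tgfb1 and Itgb8, whose product releases active TGF-beta, were 0.92 and 1.07 higher, and Entpd1, the ectonucleotidase CD39, 0.57. Lag3 and Ctla4 complete the 8. Ebi3, a subunit of IL-35 and IL-27, was the lower member, at 5.98, 5.81 and 5.92 in islets and 6.66, 7.07 and 6.32 in spleen (-0.78 ± 0.19 SE, adjusted p = 0.0175). Gzmb, the cytotoxic protease granzyme B, was 9.58 ± 0.47 in islets and 9.62 ± 0.30 in spleen (adjusted p = 0.941).

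Transcription factors of effector Tregs were higher for 10 of 20 tested members and lower for 1. Nfil3 was 6.83, 6.59 and 7.27 in islets and 5.16, 5.19 and 4.46 in spleen (1.96 ± 0.22 SE, limma adjusted p = 1.65e-05). Bhlhe40, a basic helix-loop-helix factor, was 1.66 ± 0.16 SE higher and Ahr, the aryl hydrocarbon receptor, 1.51 ± 0.17 SE. Irf4 rose by 1.25, Tbx21, which encodes T-bet, by 1.24, Rbpj, the Notch partner, by 1.09, and Prdm1, which encodes Blimp-1, by 0.88. Irf8 (0.76), Maf (0.46) and Id2 (0.46) complete the 10, with Maf and Id2 close to the threshold (adjusted p = 0.0489 and 0.0496). Id2 and Id3 encode related inhibitors of E proteins and went opposite ways. Id3 was 4.36, 4.30 and 4.11 in islets and 6.03, 5.31 and 5.68 in spleen, without overlap (-1.42 ± 0.20 SE, adjusted p = 0.000173).

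Of 25 Th1 and inflammatory mediators tested, 8 were higher and 0 lower. Ifng, which encodes interferon gamma, was 7.33, 7.98 and 7.41 in islets and 5.59, 5.55 and 5.51 in spleen (2.02 ± 0.19 SE, limma adjusted p = 1.16e-06). The chemokine Ccl4 was 8.83, 9.33 and 9.03 against 7.37, 7.34 and 7.24 (1.75 ± 0.16 SE), and its neighbour Ccl3 7.12, 8.11 and 6.57 against 5.92, 5.35 and 6.13 (1.46 ± 0.29 SE). Islet library 2 was the highest for these 3 genes. It also had the highest summed level of the CD8 T and NK markers, 211 against 144 and 150 in the other islet libraries, and the highest Klrd1, an NK cell receptor chain, at 4.47 against 3.32 and 3.76, and the part of such cells in these differences was not tested. Xcl1, a chemokine for cross-presenting dendritic cells that is also on the CD8 T and NK list, was 1.70 higher, Nkg7, a granule protein, 1.20, Il12rb2, the inducible IL-12 receptor chain, 1.01, and Csf1, the macrophage growth factor, 0.97. Ccl5 was 9.70 ± 0.62 in islets and 9.83 ± 0.16 in spleen (adjusted p = 0.792).

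Of 27 homing receptors and integrins tested, 6 were higher and 0 lower, with a median of 0.08. The chemokine receptor Cxcr4 was 8.54, 8.02 and 8.64 in islets and 6.26, 5.73 and 5.84 in spleen (2.46 ± 0.19 SE, limma adjusted p = 2.20e-07). Ccr8, a receptor of tissue Tregs, was 9.27, 8.68 and 9.01 against 6.30, 6.74 and 7.01 (2.30 ± 0.19 SE, adjusted p = 4.27e-07), and Cxcr6, the receptor for Cxcl16, was 1.87 ± 0.22 SE higher. No islet value of these 3 genes fell to a spleen value. Cx3cr1, the fractalkine receptor, was 4.68, 3.59 and 4.60 in islets against 3.10, 2.96 and 3.18 in spleen, with islet library 2 the lowest of the islet libraries. Itgb8 and Itgav, the 2 chains of an integrin that activates TGF-beta, were 1.07 and 0.78 higher.

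Of 15 genes of lymphoid recirculation, by which T cells pass between lymphoid organs, 7 were lower and 1 higher, with a median of -0.44. S1pr1, the receptor that draws T cells out of lymphoid tissue, was 6.98, 7.37 and 6.67 in islets and 8.40, 7.89 and 7.95 in spleen (-1.07 ± 0.19 SE, limma adjusted p = 0.00165). Klf2, the factor that drives S1pr1, was 6.80, 7.48 and 7.58 against 8.34, 7.85 and 7.94 (-0.76 ± 0.20 SE, adjusted p = 0.0258). Gpr183, a receptor for oxysterols, was -0.88 ± 0.16 SE. Rasgrp2, Fam65b and Rasa3, which act on small GTPases of adhesion and migration, fell by 1.07, 0.98 and 0.59. In all 7 the lowest spleen library was above the highest islet library, as holds for nearly all called genes. Over the list, the libraries of 8 of 15 members did not overlap, against 27.4% of all tested genes. Ccr7, the lymph node homing receptor, went the other way: it was 7.34, 6.19 and 6.82 in islets and 5.07, 5.57 and 6.01 in spleen (1.23 ± 0.26 SE, adjusted p = 0.00719), with spleen library 3 close to islet library 2. Without spleen library 1 or spleen library 3 the count of 7 was 4.

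Klf3 and Il7r led the resting T cell genes, of which 4 of 26 tested were lower and 2 higher. Klf3 was 6.01, 6.46 and 5.90 in islets and 8.53, 7.96 and 8.18 in spleen (-2.09 ± 0.19 SE, limma adjusted p = 1.03e-06), and the authors' deposited FPKM was 12.9 and 133. Il7r, the receptor chain for the survival cytokine IL-7, was 8.14, 7.82 and 8.32 against 9.99, 9.26 and 9.47 (-1.48 ± 0.18 SE). Tespa1, a protein of TCR signalling, and Pik3ip1, an inhibitor of PI3 kinase, were -1.15 and -0.63. Il6st, the gp130 chain of IL-6 family receptors, and Tsc22d3, which encodes GILZ, were 0.99 and 0.82 higher. Outside the lists, Dtx1 was 6.10, 6.83 and 6.71 in islets and 8.26, 8.39 and 8.20 in spleen (-1.74 ± 0.19 SE, adjusted p = 8.13e-06), and Txnip, which restrains glucose uptake, 6.52, 7.32 and 6.71 against 8.23, 8.26 and 8.18 (-1.37 ± 0.19 SE). Klf3 is on chromosome 5 at 64803388 to 64832901 and Il7r on chromosome 15 at 9505788 to 9530176 (GRCm38, both protein-coding).

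Interferon-induced genes were lower in islets for 9 of 32 tested members, with 0 higher and a median of -0.45. This group answers type I and II interferons through STAT factors and Irf9 and includes antiviral sensors and effectors. Irf9 was 6.55, 6.71 and 6.14 in islets and 7.27, 7.44 and 7.19 in spleen (-0.83 ± 0.18 SE, limma adjusted p = 0.00685). Ifi27l2a, a small mitochondrial protein, was 12.42, 12.28 and 12.13 against 12.90, 13.31 and 12.86 (-0.75 ± 0.14 SE, adjusted p = 0.00231). Ifit3, which binds viral RNA complexes, was 4.57, 4.39 and 4.25 against 4.77, 5.31 and 5.33 (-0.74 ± 0.20 SE, adjusted p = 0.0274). The sensor Ifih1, the deubiquitinase-like protein Usp18, Rtp4, the guanylate binding proteins Gbp4 and Gbp7 and the DNA-binding protein Ifi203 were -0.58 to -0.90. In these 9 genes the highest islet library stayed below the lowest spleen library, as holds for nearly all called genes. The gap was small in Usp18 (4.74 in islet library 1 and 4.84 in spleen library 1). Over the list, the libraries of 20 of 32 members did not overlap, against 27.4% of all tested genes. The count of 9 was 14 without islet library 2, 2 without spleen library 2 and 4 without spleen library 3. The count of 0 higher was 1 without islet library 2 and 2 without both number 2 libraries, where 6 were lower. The authors' deposited DESeq2 table called 6 members lower and 0 higher. There Ifit3, Ifih1, Usp18 and Ifi203 did not pass, with DESeq2 adjusted p of 0.0528 to 0.0718. Ifng, whose product is itself an interferon, was higher in islets, as given above.

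The promoters of Ifit3, Ifit1bl1 and Gbp7 are shown because each holds a match to the interferon response motif, whose share among the lower genes is given after them. Ifit1bl1, a member of the Ifit family outside the list, was among the largest falls at 4.52, 5.65 and 4.42 in islets and 6.56, 6.69 and 6.43 in spleen (-1.69 ± 0.26 SE, limma adjusted p = 0.000346), although the authors' deposited DESeq2 table gives it -0.89 and an adjusted p = 0.411. The interferon response motif, a pair of GAAA separated by 2 bases of any kind, is bound by interferon regulatory factors, was searched on both strands and is in capitals. A match that starts with TTTC is one on the opposite strand. The windows are the 250 bases before the start in GRCm38.p6 (RefSeq), 5′ to 3′: chr19:34583279-34583528, plus strand (Ifit3), chr19:34601969-34602218, minus strand (Ifit1bl1), and chr3:142530086-142530335, plus strand (Gbp7).
Ifit3: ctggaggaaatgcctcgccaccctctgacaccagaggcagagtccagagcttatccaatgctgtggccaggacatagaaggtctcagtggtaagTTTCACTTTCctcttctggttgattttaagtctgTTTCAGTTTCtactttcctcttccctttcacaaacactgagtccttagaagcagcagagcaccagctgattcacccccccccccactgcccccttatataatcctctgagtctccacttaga
Ifit1bl1: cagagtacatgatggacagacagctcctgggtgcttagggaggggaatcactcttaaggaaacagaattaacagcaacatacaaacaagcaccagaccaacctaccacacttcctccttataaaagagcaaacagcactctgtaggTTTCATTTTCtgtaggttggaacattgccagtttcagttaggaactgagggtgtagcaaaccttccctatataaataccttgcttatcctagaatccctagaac
Gbp7: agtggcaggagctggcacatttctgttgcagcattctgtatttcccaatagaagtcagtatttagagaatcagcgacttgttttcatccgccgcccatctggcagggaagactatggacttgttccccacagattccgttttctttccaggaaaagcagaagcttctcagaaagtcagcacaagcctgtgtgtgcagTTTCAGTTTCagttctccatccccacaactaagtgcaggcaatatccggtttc
Ifit3 holds 2 matches, which begin 156 and 122 bases before the start, Ifit1bl1 holds 1 at 104 bases and Gbp7 holds 1 at 53 bases.

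In the 300-base windows, this motif was found for 23 of 187 lower genes (12.3%), 12 of 356 higher genes (3.37%) and 275 of 6951 tested genes (3.96%), and in 3.44% of all windows. Of the 23 lower genes that held it, 4 were in the interferon-induced list (Gbp7, Ifi203, Ifih1 and Ifit3). The other 19 included Ddx58, which encodes the RNA sensor RIG-I (-0.96), Slfn5 (-1.0), Oas3 (-0.73) and Irgm2 (-0.72). Of the 6 fits that left out 1 library, Oas3 and Ifi203 passed in 1 and Ifih1 and Irgm2 in 2. Ifit3 passed in 3, Ddx58 and Gbp7 in 4 and Slfn5 in 6. The motif shares rest on the calls of the main fit and were not computed for other fits. Some of these genes belong to families of similar neighbours, so their windows are not independent, and a match describes the letters of the window and not the binding of a factor. The AP-1 motif TGANTCA, searched the same way, was found for 7.02% of higher, 7.49% of lower and 5.47% of tested genes and in 7.81% of all windows. An NF-kB motif was found for 72.2% of higher, 66.3% of lower and 72.6% of tested genes and in 50.8% of all windows.

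**Figure D4:**
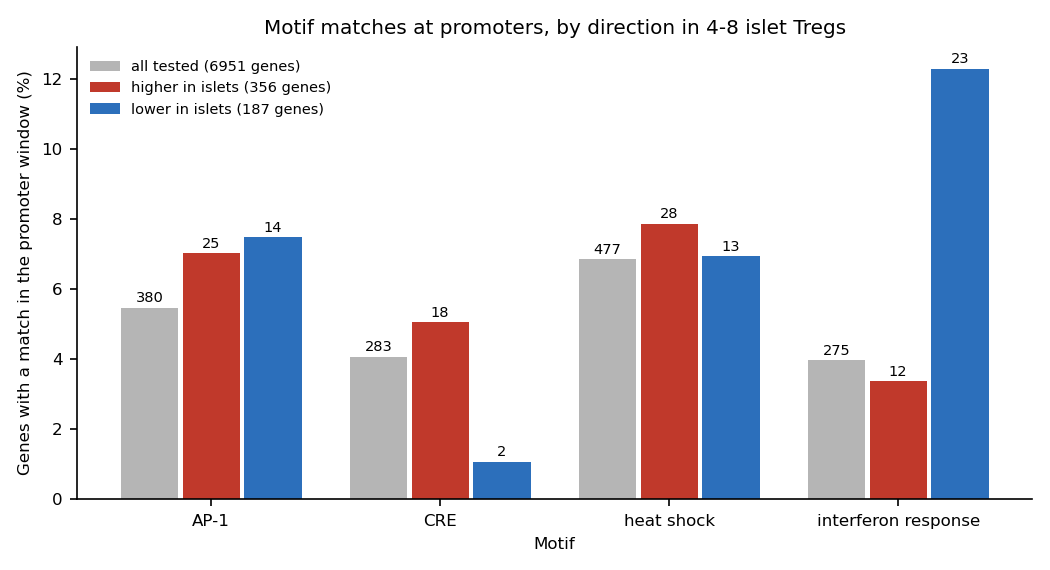
Share of genes (vertical axis, percent) whose promoter window holds a match to each of 4 motifs (horizontal axis), among all 6951 tested genes with a window (grey), the 356 higher (red) and the 187 lower (blue), with the number of genes above each bar. The interferon response motif was found for 12.3% of the lower genes against 3.96% of those tested, while the AP-1 and heat shock motifs were found for similar shares of higher and lower genes.

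Of 20 glycolysis genes tested, 10 were higher and 0 lower, with a median of 0.60. The glucose transporter Slc2a1 was 6.97, 6.92 and 7.03 in islets and 5.90, 5.38 and 5.55 in spleen (1.36 ± 0.18 SE, limma adjusted p = 7.14e-05), and the lactate exporter Slc16a3 was 1.24 ± 0.18 SE higher. The glycolytic enzymes Pgam1, Tpi1, Hk2, Pkm, Gapdh, Ldha, Pfkp and Aldoa rose by 0.65 to 1.05. Hilpda, a lipid droplet protein induced by low oxygen, was among the largest rises outside the lists, at 7.29, 7.78 and 7.75 against 5.15, 5.48 and 5.35 (2.28 ± 0.18 SE, adjusted p = 2.21e-07). By contrast 2 of 71 oxidative phosphorylation genes (Uqcr10 and Atp5a1) and 3 of 78 cytosolic ribosomal protein genes (Rps25 and Rps2 among them) were higher. These counts are no larger than the 5.14% of all tested genes would give. In either list 0 were lower and the median was 0.04, and the libraries overlapped for Rps2. Without islet library 2 the counts were 10 and 11, without islet library 1 they were 1 and 2, without islet library 3 both were 1, and without any 1 of the spleen libraries both were 0.

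Of 36 cell cycle genes, 5 were higher and 1 lower. Cdkn1a, which encodes the cell cycle inhibitor p21, was 8.33, 8.91 and 8.84 in islets and 6.83, 7.73 and 7.51 in spleen (1.33 ± 0.21 SE, limma adjusted p = 0.000558). The replication helicase genes Mcm6, Mcm2 and Mcm5 were 0.98, 0.80 and 0.61 higher and the centromere histone Cenpa 0.80, while Ccnd2, a cyclin of the G1 phase, was -0.57. Mki67, the proliferation marker Ki-67, was 8.87 ± 0.15 in islets and 8.69 ± 0.23 in spleen (adjusted p = 0.542). The count of 5 was 9 without islet library 2, 3 without islet library 1, islet library 3 or spleen library 2, and 2 without spleen library 1 or 3.

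The remaining lists are given beside the 5.14% of all tested genes that were higher and the 2.84% that were lower. Of 29 TCR chain and proximal kinase genes, 5 were higher and 0 lower (Zap70, 0.77, Plcg1, 0.84, Ptpn6, 0.68, Ptpn22, 0.67, and Cd3e, 0.52), with 8 without islet library 2 and 2, 2 and 1 without spleen libraries 1, 2 and 3. Of 21 genes of gamma-chain cytokine signalling, the kinase Jak3 (0.95) and the factors Stat5a (0.84) and Stat3 (0.66) were higher, and Il7r was lower. Of 22 survival and death genes, 4 were higher, among them the pro-death Pmaip1 (1.24) and the pro-survival Bcl2a1d (1.09) and Bcl2a1b (0.66), and the inhibitor of apoptosis Xiap was lower (-0.85). The Bcl2a1 genes are close copies whose reads are hard to divide. Of 19 S100, annexin and galectin genes, Anxa2 was higher (0.93) and S100a4 and S100a10 were lower (-0.59 and -0.47), neither of them in any fit without islet library 1 or a spleen library. Of 8 GIMAP GTPases, Gimap8 was lower (-0.74) and 0 were higher, with 0 lower without spleen library 1 or 3 and 2 lower without islet library 2. Of 22 cholesterol genes, Insig1 was higher (0.90) and 0 were lower. Of 14 anergy-linked genes, Egr2, Cblb and Ndfip1 were higher, of 41 proteasome subunits Psmd3, Psmc3 and Psma7, and of 10 genes of the tissue repair axis Il10, Nfil3, Areg and Penk, with 0 lower in these lists. Without islet library 2 the anergy list had 3 higher and 3 lower genes and without spleen library 2 it had 1 higher, while the proteasome list had 1 higher without spleen library 1 or 2 and 1 lower without islet library 1.

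Tregs of the low affinity receptor 12-4.4m1 give the same contrast in other libraries, fitted in a table of their own with 8438 tested genes, of which 391 were higher (4.63%) and 184 lower (2.18%) in islets. Since both receptors were taken from retrogenic mice of the same design, the 2 sets may share mice. Of the 462 genes higher in 4-8, 232 were also higher in 12-4.4m1, which is 50.2% of the 4-8 genes and 59.3% of the 12-4.4m1 genes. Of the 255 lower in 4-8, 62 were also lower, 24.3% of the 4-8 and 33.7% of the 12-4.4m1 genes. The sign was shared by 419 of the 431 higher and 236 of the 254 lower genes that were tested in both, and 0 genes were called in opposite directions. Fos was 4.24 ± 0.18 SE in 4-8 and 4.46 ± 0.19 SE in 12-4.4m1, Hspa1a 4.15 and 4.32, Dusp1 3.0 and 3.12, and Ctla4 2.03 and 2.21. Values lay further apart for Lag3 (3.02 and 1.48), Il10 (3.04 and 1.57), Ccl4 (1.75 and 0.47), Ccl3 (1.46 and 0.03), Ahr (1.51 and 0.50) and, in the other direction, Areg (1.67 and 2.39). Among the lower genes, Klf3 was -2.09 in 4-8 and -1.09 in 12-4.4m1, Id3 -1.42 and -0.57, Irf9 -0.83 and -0.02, Gpr183 -0.88 and -0.13, and Il7r -1.48 and -1.87. These genes were chosen by their calls in 4-8, which favours larger differences in 4-8 than in 12-4.4m1. Those named as further apart were picked for their gap. Ccl4 and Ccl3 were highest in islet library 2 of 4-8, as given above. The tables were normalized separately and differences between the 2 receptors' contrasts were not tested.

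**Figure D5:**
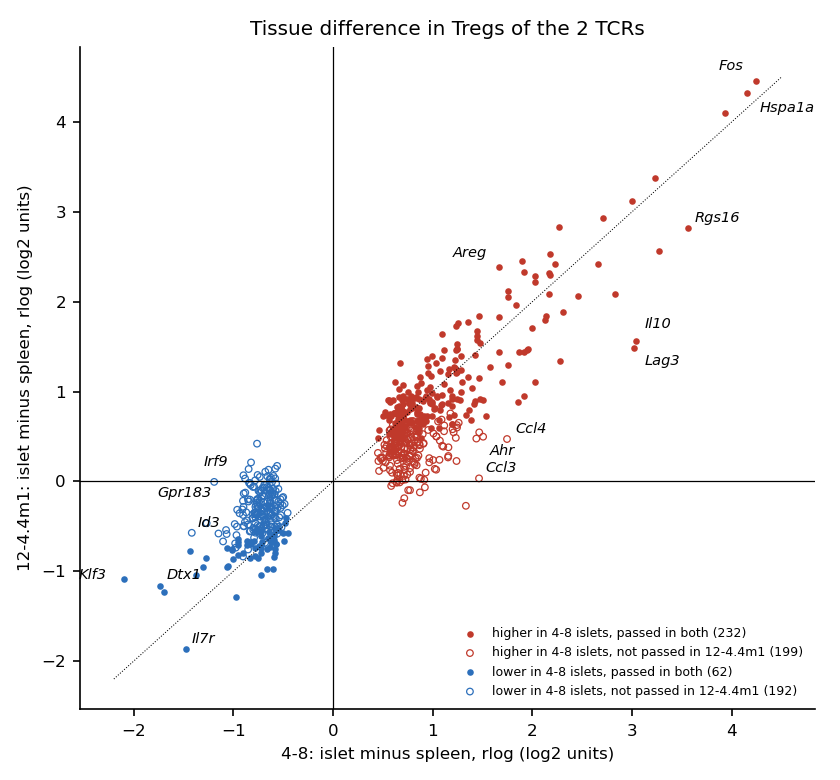
Islet minus spleen difference (rlog, log2 units) in 4-8 Tregs (horizontal axis) and in 12-4.4m1 Tregs (vertical axis) for the genes called in 4-8 and tested in both, red if higher and blue if lower in 4-8 islets, filled if also called in the same direction in 12-4.4m1, with a dotted line of equal differences. Fos and Hspa1a lie close to the line, and Lag3, Il10, Ccl4 and Ccl3 lie below it.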

How the data were processed

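RNA of sorted Tregs was sequenced in 4 groups of 3 libraries. Per the submitters' processing notes, the authors used TopHat 1.0.0, Cufflinks, STAR 1.1.0, DESeq2 1.1.0 and DESeq with mm10 and GRCm38, with no role stated for any of them. The authors deposited rlog values, which are log2 normalized counts, for each library, and fitted them separately for each pair of groups. The authors' DESeq2 table gives the mean normalized count (a signal per gene), a log2 fold change and an adjusted p-value. The authors' Cuffdiff table gives 1 FPKM per group and a q-value. The authors' fold changes were deposited as spleen minus islets and were turned to islets minus spleen. Raw counts and depth per library were not used here, so no counting interval is given.

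Islets minus spleen was fitted on the 6 rlog columns with limma 3.58.1 (R 4.3.3, lmFit and eBayes with a trend), over genes with a mean normalized count of at least 10, with Benjamini-Hochberg adjustment over all of them and a threshold of 0.05. An exact permutation test of 3 against 3 cannot give a p below 0.1, so none is reported for single genes. The fit was checked on simulated data. The 12-4.4m1 table was fitted in the same way. Tables were joined with pandas 2.3.3 in Python 3.11.15. Promoter windows of 300 bases came from RefSeq (GRCm38.p6) and matched 6951 tested genes by symbol, and gene positions came from GENCODE vM21.

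Named genes were the 15 largest non-overlapping calls in each direction, and, in each of 40 gene lists, up to 6 members with the smallest p and those that complete a count. Ddx3y, Ddx58, Slfn5, Oas3 and Irgm2 were named after their values were seen, as was the interferon motif chosen. Eif2s3y, Uty and Kdm5d were too, and are outside the counts of named genes below. The gene lists and the comparison were chosen with earlier results of these data known. Alternatives were other filters, variance models and scalings, a replicate block, Xist as a covariate, and leaving out libraries. Some genes are not reported here, and the counts of their lists include them.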

Additional observations from a re-analysis of the deposited data

How the results depend on the processing

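Of the 180 named genes called in 4-8 Tregs, 118 passed without any 1 of the 6 libraries. In every alternative fit that included them 117 passed, and 0 changed sign. The fit with a minimum mean normalized count of 50 held 171 of the named genes, so some of the 117 were not fitted there. When 1 library was left out, the higher genes ranged from 245 to 694 and the lower from 61 to 517. With 12-4.4m1 the ranges were 228 to 396 and 60 to 214. Without the low count filter there were 396 higher and 191 lower genes, and with quantile normalization 408 and 306. Cuffdiff, in the authors' deposited values, called 702 higher and 412 lower. The labels do not say whether libraries of the same number are paired. The deviations of same-numbered libraries correlated at -0.056, -0.118 and -0.048, which cannot decide this with 3 libraries per group. A fit with the replicate block gave 469 higher and 260 lower genes. Signs changed for genes that did not pass. When 1 library was left out, the difference ranged from -0.156 to 0.316 for Batf, -0.26 to 0.21 for Gzmb, -0.413 to 0.206 for Ccl5, -0.631 to 1.25 for Xist and -0.614 to 0.349 for Ddx3y, and without islet library 2 Xist was -0.631 and Ddx3y 0.349. Without both number 2 libraries Gzmb was 0.0465, Xist -0.608 and Ddx3y 0.334, and after quantile normalization Batf was -0.0953. With the Xist level in the fit, Xist itself is 0.0 by construction. The cause of the other changes was not tested.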
